A study of Mus musculus with 18 samples.

Results

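Double-positive (CD11b+ CD103+) and CD11b+ single-positive dendritic cells (DCs) were each compared between the intestinal lymph nodes and the small intestinal lamina propria, and the comparison described here asks for which genes those differences between tissues were unequal. The quantity tested was the lymph node minus lamina propria difference in double-positive DCs less the same difference in CD11b+ DCs, on the log2 scale, and is called the interaction below. It rests on 12 of the 18 RNA-seq libraries of the series, 3 in each of 4 groups, and was tested for 17074 of 54232 genes. A gene was called at an adjusted p under 0.01 and an absolute log2 value over 1. In 1987 genes the interaction was called, which is 11.6% of those tested. Of these, 27 moved in opposite directions in the 2 subsets, 485 moved the same way by unequal amounts, and the difference between tissues was called in double-positive DCs alone for 1265 and in CD11b+ DCs alone for 90.

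All groups came from C57BL/6J mice whose genotype is given as CD11a KO, so the lamina propria and lymph node groups, which serve as each other's controls, share that genotype. Itgal encodes CD11a, which pairs with CD18 to form the leukocyte integrin LFA-1. The cells were sorted as CD45+ CD64- MHCII-high CD11c+ cells and then divided by CD11b and CD103. The groups are CD11b+ DCs of the lamina propria, CD11b+ DCs of the lymph node, double-positive DCs of the lamina propria and double-positive DCs of the lymph node. The ages of the mice, the number of mice behind a library and the way the allele was made are not given in the sources used here. Wild-type libraries were not analysed here, so no value below is an effect of the genotype.

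Conventional DCs of the intestinal wall take up antigen, mature, and travel through lymph to the draining lymph node, where they present antigen to T cells. CD11b+ CD103+ cells are characteristic of the small intestine and most of those in the mesenteric node are migrants, whereas the CD11b+ CD103- fraction is mixed and can hold both migrants and cells resident in the node. Maturation raises CCR7, co-stimulatory molecules and class I presentation, and lowers antigen uptake receptors and cell division.

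The 12 libraries held 23574292 to 31805879 counted reads, and levels are given as CPM, a gene's reads relative to the size of its library after scaling with TMM factors. Itgal was counted at 9.56 to 25.3 CPM in all 12 libraries and its interaction was -0.44 ± 0.31 (adjusted p = 0.322), but whether the counted exons lie in the altered stretch is not known, so that level does not check the genotype. The DC genes Flt3, Zbtb46, Itgax and H2-Ab1 were present in every group, and Fcgr1, which encodes the CD64 that the gate removes, lay at or below 11.1 CPM in each library. Itgam, which encodes CD11b, fell towards the node in both subsets and further in double-positive DCs, from 65.9, 63.2 and 76.4 CPM to 4.88, 5.76 and 4.85 CPM, than in CD11b+ DCs, from 55.3, 60.5 and 68.1 CPM to 25.7, 13.8 and 23 CPM, with an interaction of -2.17 ± 0.39 (adjusted p = 0.000445). Itgae, which encodes CD103, was higher in double-positive than in CD11b+ DCs in each tissue, yet fell towards the node in both subsets. It went from 826, 714 and 896 CPM to 48.1, 49.1 and 41.1 CPM in double-positive DCs. In CD11b+ DCs it went from 121, 92.1 and 292.5 CPM to 5.57, 6.655 and 5.69 CPM. Its interaction of 0.68 ± 0.43 (adjusted p = 0.26) was not called. The sex of the mice could not be told apart from the tissue: the male gene Ddx3y was at 50.04 to 74.4 CPM in all 6 lamina propria libraries, and in the lymph node at 58.0 and 52.2 CPM in replicate 3 of the CD11b+ and double-positive groups and at no more than 0.21 CPM in replicates 1 and 2. Replicate 3 of both lymph node groups carried the female transcript Xist too, at 15.4 and 26.1 CPM, and without these 2 libraries 1572 interactions were called, 786 of each sign. Without the genes of the X and Y chromosomes 1930 interactions were called.

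Across the 17074 genes the 2 tissue effects ran together, with Pearson's r of 0.74 and a Spearman coefficient of 0.701 over genes, which are not independent replicates. The effects were wider in double-positive DCs, where the middle 50% of genes lay between -0.68 and 1.04 on the log2 scale, against -0.36 to 0.60 in CD11b+ DCs. The tissue effect was called for 5485 genes in double-positive DCs (32.1%) and 2600 in CD11b+ DCs (15.2%). Among the 2112 genes called in both subsets, 2085 moved the same way (98.7%) and 27 moved in opposite directions. The interaction was called for all of the 27 and for 485 of the 2085. Of the 3373 genes called in double-positive DCs but not in CD11b+ DCs, only 1265 were called in the interaction; for the other 2108 a difference between the subsets was not shown.

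**Figure D1:**
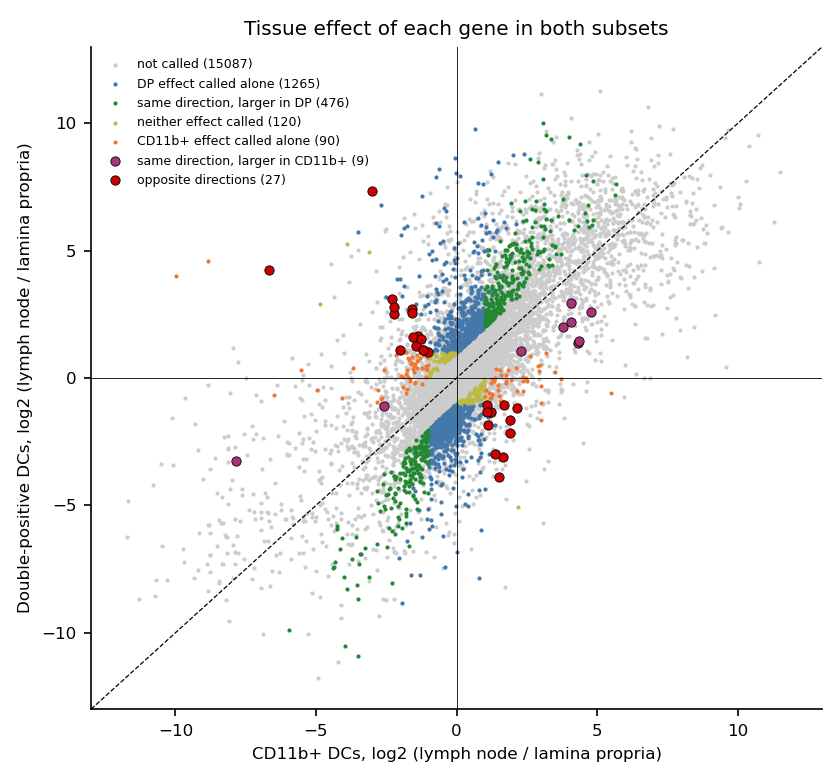
Each point is 1 of 17074 genes, with the log2 difference of lymph node over lamina propria in CD11b+ DCs on the horizontal axis and in double-positive DCs on the vertical axis, coloured by the class of its interaction. The dashed line marks equal effects; most coloured points lie farther from the horizontal axis than that line, where the change in double-positive DCs was the larger, and the 27 red points lie at the upper left and the lower right.

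The 1987 genes divided evenly by sign, with 973 positive (5.7% of genes tested) and 1014 negative (5.94%). A positive value means that the step from lamina propria to lymph node was more upward in double-positive DCs. This split depends on the scaling: with total counts in place of TMM factors, which moves the median interaction of all genes by -0.307, 595 genes were positive and 1760 negative, so that 25.3% of calls were positive against 49.0%. By class, 1265 genes (63.7% of those called) had a called tissue effect in double-positive DCs alone, 567 of them rising and 698 falling. A further 476 (24.0%) moved the same way in both subsets and further in double-positive DCs, 284 up and 192 down. The reverse was rare: 90 genes (4.53%) had a called effect in CD11b+ DCs alone, 42 up and 48 down, and 9 moved the same way but further in CD11b+ DCs. The remaining 120 (6.04%) had no called effect in either subset.

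For most genes called in double-positive DCs alone, the estimate in CD11b+ DCs had the same direction. Of the 1265, 963 had the same sign in both subsets, and 326 of those had an adjusted p under 0.01 in CD11b+ DCs with a change below the fold limit. In 922 the CD11b+ effect did not pass that p. The interaction can also be read as the difference between subsets in the node less that in the lamina propria. Of the 1987 genes, 1361 (68.5%) differed between the subsets in the lymph node only, 181 (9.11%) in the lamina propria only, 56 in both tissues with the other subset higher, 54 in both with the same subset higher, and 335 (16.9%) in neither. Over all genes tested the subsets differed for 821 genes in the lamina propria (4.81%) and 2857 in the lymph node (16.7%).

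The 27 genes with opposite directions are named first, since for them the subsets did not share even the direction of the change. In 12, the level fell in double-positive DCs and rose in CD11b+ DCs towards the node, and in 15 it did the reverse. All 12 of the former were called higher in CD11b+ than in double-positive DCs in the lymph node, and 2 differed between the subsets in the lamina propria. Of the 15, 14 were higher in CD11b+ DCs in the lamina propria, 10 of them past the threshold. In bulk samples such as these, fewer cells of a type and less RNA per cell cannot be told apart. The calls were not all equally firm: 7 of the 27 kept opposite called directions under each of 24 other settings and left-out libraries, namely Cyp4f16, Cd82, Bst1, H2-Q10, Rab20, E230013L22Rik and Gm15925, while 12 lost them in 5 or more. In this and the other classes the genes named are those with the largest interactions among symbols other than Gm and Rik names, with at least 10 CPM in a group and no overlap between tissues where the effect was called, unless stated otherwise.

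Among genes that fell in double-positive and rose in CD11b+ DCs was Cyp4f16 (chr17:32536558-32551798) (this and other gene positions are spans in GRCm38), a cytochrome P450 of the 4F family, whose members hydroxylate fatty acids and eicosanoids. In CD11b+ DCs it was at 156, 129 and 172 CPM in the lamina propria and 606, 449 and 650 CPM in the lymph node. Double-positive DCs had 141, 136 and 142 CPM in the lamina propria and 30.5, 28.1 and 34.1 CPM in the lymph node. The lamina propria groups overlapped, whereas in the node every CD11b+ library lay above its lamina propria counterparts and every double-positive library below. Such separation of the tissues is required by the naming rule. The log2 changes were 1.90 ± 0.14 (SE) in CD11b+ DCs and -2.18 ± 0.15 in double-positive DCs, an interaction of -4.08 ± 0.20 (adjusted p = 4.48e-09). Its relative Cyp4f37 rose from 0.826, 0.329 and 1.48 CPM to 46.6, 25.2 and 48.3 CPM in CD11b+ DCs and was at 2.2, 1.56 and 2.28 CPM in the lamina propria and 0.508, 1.54 and 1.95 CPM in the lymph node in double-positive DCs. Reads from such close relatives may have been divided between them in counting.

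Ptger3 (chr3:157566892-157645888) encodes the EP3 receptor for prostaglandin E2. It started higher in double-positive DCs, at 60.1, 45.9 and 61.5 CPM in the lamina propria and 1.76, 4.89 and 4.75 CPM in the lymph node, while CD11b+ DCs had 5.64, 7.58 and 13.8 CPM in the lamina propria and 29.1, 18.6 and 30 CPM in the lymph node. Lamina propria and lymph node libraries overlapped in neither subset, which the naming rule requires. The order of the subsets was turned round between the tissues, and the interaction was -5.40 ± 0.53 (adjusted p = 1.47e-06). Tbx21 (chr11:97098071-97115331), which encodes the transcription factor T-bet, did the same: 57.8, 57.7 and 60.1 CPM in the lamina propria and 15.8, 17.8 and 15.9 CPM in the lymph node in double-positive DCs, and 26.6, 31.2 and 43.1 CPM in the lamina propria and 63.1, 76.1 and 78.5 CPM in the lymph node in CD11b+ DCs. Its interaction was -2.94 ± 0.33 (adjusted p = 6.72e-06). Cd82, a tetraspanin named here after its values were seen because its call held under every setting, went from 329, 323 and 344 CPM to 133, 136 and 130 CPM in double-positive DCs and from 231, 194 and 236 CPM to 485, 535 and 474 CPM in CD11b+ DCs, with an interaction of -2.50 ± 0.13 (adjusted p = 4.48e-09).

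The C-type lectin receptor gene Clec4a1 (chr6:122921848-122934619) was level in the lamina propria, at 14.2, 23.3 and 19.3 CPM in CD11b+ and 13.6, 14.3 and 22.2 CPM in double-positive DCs, and apart in the node, at 67.7, 38.7 and 71.1 and 1.99, 1.71 and 2.09 CPM. The interaction was -4.75 ± 0.56 (adjusted p = 8.72e-06). Sirpb1a (chr3:15371653-15426520), a signal-regulatory protein of myeloid cells, was higher in CD11b+ DCs in both tissues, at 78.9, 63.7 and 59.3 CPM in the lamina propria and 180, 114 and 177 CPM in the lymph node, against 24.6, 26.8 and 9.24 CPM in the lamina propria and 7.19, 8.9 and 7.79 CPM in the lymph node in double-positive DCs. Its lowest lamina propria library in double-positive DCs lay just above the highest lymph node one, and its interaction was -2.57 ± 0.41 (adjusted p = 0.000168). Clec4a1 and Sirpb1a both belong to families of near-identical genes, so their counts are uncertain to that extent. The related Clec4a2, Clec4a4 and Sirpb1c also had a negative interaction, of -4.90, -4.18 and -2.23.

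Of the genes that rose in double-positive and fell in CD11b+ DCs, Bst1 (chr5:43818885-43843986) encodes CD157, an ectoenzyme that cleaves NAD. It was at 9.55, 9.77 and 19.9 CPM in the lamina propria and 3.35, 1.95 and 2.63 CPM in the lymph node in CD11b+ DCs. The double-positive libraries were at 1.04, 0.779 and 0.607 CPM in the lamina propria and 6.33, 6.67 and 8.17 CPM in the lymph node. Every CD11b+ library was above every double-positive one in the lamina propria and below in the node, and the interaction was 5.42 ± 0.45 (adjusted p = 3.23e-07). H2-Q10 (chr17:35470089-35474563), a non-classical MHC class I gene whose reads can be shared with other class I genes, went from 11.1, 7.1 and 25 CPM to 2.68, 3.38 and 3.26 CPM in CD11b+ and from 1.34, 0.949 and 1.61 CPM to 8.16, 6.95 and 7.13 CPM in double-positive DCs, an interaction of 4.72 ± 0.61 (adjusted p = 2.26e-05). Gprc5a (chr6:135065651-135084709), an orphan G protein-coupled receptor, was at 6.82, 7.36 and 4.07 CPM in the lamina propria and 1.1, 1.72 and 3.33 CPM in the lymph node in CD11b+ DCs. Levels in double-positive DCs were 1.12, 2.14 and 2.03 CPM in the lamina propria and 8.05, 11.8 and 15.2 CPM in the lymph node. Its interaction was 4.29 ± 0.59 (adjusted p = 4.3e-05).

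Pla2g7 (chr17:43568098-43612201), the secreted phospholipase that inactivates platelet-activating factor, was the most abundant of these in the node, at 130, 123 and 168 CPM in the lamina propria and 844, 809 and 806 CPM in the lymph node in double-positive DCs. CD11b+ DCs had 272, 203 and 710 CPM in the lamina propria and 119, 111 and 161 CPM in the lymph node, with replicate 3 of the lamina propria far above the others. The interaction was 4.14 ± 0.50 (adjusted p = 1.24e-05), and 3.41 without that library. Pla2g7 then lost its opposite called directions, as it did without replicate 2 of the lymph node CD11b+ group. Rab20, a small GTPase of endosomes named here after its values were seen, was alike in the lamina propria, at 52.4, 45.9 and 62.1 CPM in CD11b+ and 51.9, 54.2 and 43.8 CPM in double-positive DCs, and separated in the node to 21.2, 19.1 and 27 and 144, 148 and 148 CPM, with an interaction of 2.80 ± 0.18 (adjusted p = 5.1e-08). E230013L22Rik lies on the other strand and overlaps the start of Rab20, and since the library kit does not mark strand, reads from the shared stretch cannot be assigned to either.

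Ccr2, Lyz1, Il1rn and Tlr12, genes of monocytes and innate immunity, were called higher in CD11b+ than in double-positive DCs of the lamina propria. Ccr2, the receptor that monocytes use to leave the bone marrow, was at 359, 397 and 277 CPM in the lamina propria and 152, 102 and 149 CPM in the lymph node in CD11b+ DCs. For double-positive DCs the values were 7.23, 8.91 and 3.78 CPM in the lamina propria and 22.3, 20.5 and 20.3 CPM in the lymph node. Lyz1, a lysozyme nearly identical to Lyz2, fell in CD11b+ DCs from 809, 680 and 1645 CPM to 258, 217 and 304 CPM and rose in double-positive DCs from 74.7, 71.6 and 73.8 CPM to 169, 164 and 137 CPM. The CD11b+ groups thus stayed above the double-positive ones in each tissue for both genes while the gap narrowed, and the interactions were 3.02 ± 0.57 (adjusted p = 0.0007) and 3.10 ± 0.39 (adjusted p = 1.65e-05). Il1rn, the antagonist of the interleukin 1 receptor, and Tlr12, a receptor for microbial profilin, had interactions of 2.30 ± 0.43 and 2.31 ± 0.25. The tissue effects of Ccr2, Lyz1, Il1rn and Tlr12 were no longer called in both directions with total counts, under which 8 of the 15 genes kept them against all 12 of the other kind. Ccr2 and Il1rn were among the least firm of the opposite genes: they kept opposite called directions in 10 and 13 of the 24 settings, and Ccr2 lost them whenever any 1 of the 12 libraries was left out. The remaining opposite genes were Isg20, Cysltr2, Slc14a1, Gm32633 and Gm15925, which fell in double-positive DCs, and Ahrr, Mmp19, Zfp13, Gm15848, Gm21057 and E230013L22Rik, which rose there.

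Most macrophage and monocyte markers fell towards the node in both subsets. In CD11b+ DCs 9 of 14 were called lower, against 4.93% of all genes, and 1 higher, against 10.3%. In double-positive DCs 8 of 14 were called lower, against 13.6%, and 1 higher, against 18.6%. Adgre1 had log2 differences of 0.82 ± 0.22 in CD11b+ DCs, not called, and -2.59 ± 0.24 in double-positive DCs. Over the 14 markers, which include C1qa, Mertk, Lyz2 and Adgre1, the summed level was 7430 to 18480 CPM in CD11b+ DCs of the lamina propria, highest in replicate 3, and 3015 to 4706 CPM in the node. In double-positive DCs it was 2731 to 3634 CPM and 1302 to 1460 CPM. In the interaction 2 of the 14 markers were called, 1 in each direction, which is near the 11.6% over all genes. The median interaction of the list was 1.02, however, beside 0.01 over all genes. At an unadjusted p under 0.05 by edgeR, 7 were higher and 1 lower, against 39.2% of all genes in either direction. The part of these markers in the result was not tested. Without replicate 3 of the lamina propria CD11b+ group, 6 of the 15 genes that rose in double-positive DCs kept opposite called directions, and 10 of the other 12.

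**Figure D2:**
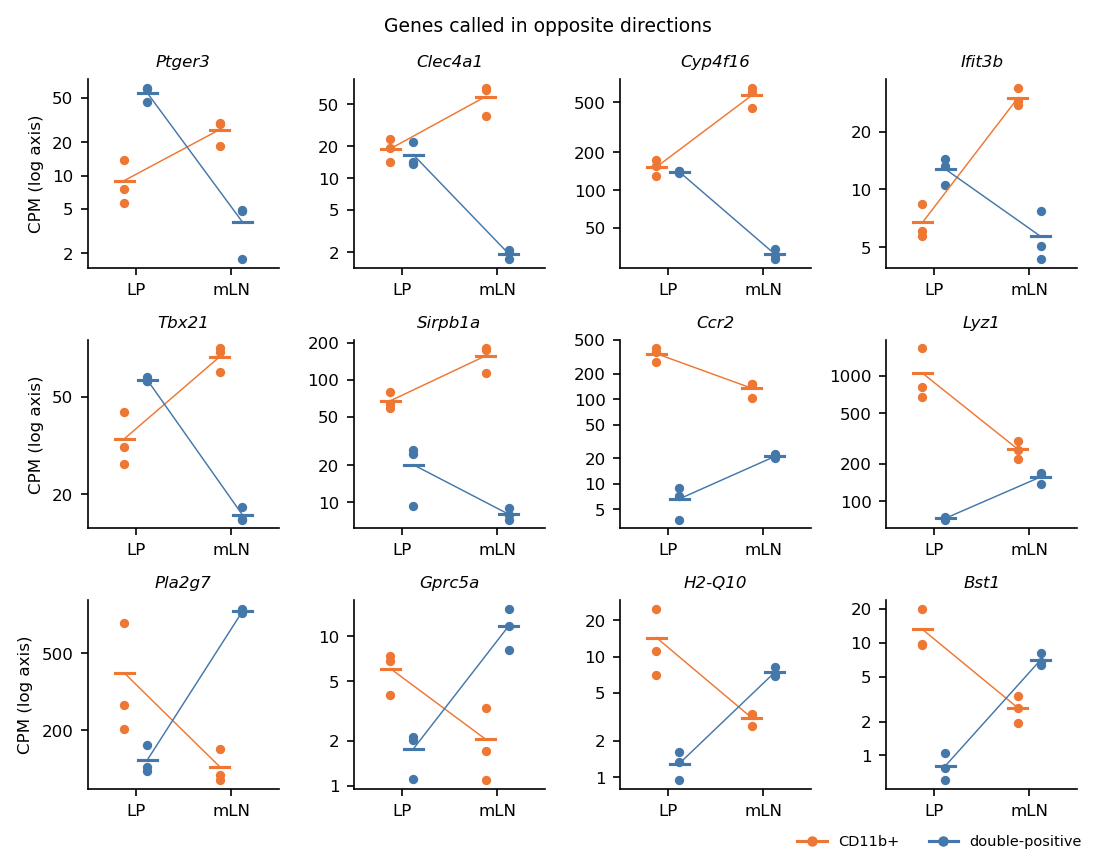
Levels in CPM on a log axis of 12 genes called in opposite directions, 6 of each kind chosen by the naming rule, by tissue (LP, lamina propria; mLN, intestinal lymph node); points are single libraries, 3 a group, bars are group means and lines join them. The lines of the subsets cross, converge or move apart towards the node. The 6 genes from Ptger3 to Sirpb1a fall in double-positive and rise in CD11b+ DCs, and the 6 from Ccr2 to Bst1 do the reverse.

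Most genes of DC maturation rose in both subsets and further in double-positive DCs. Of 22 measured genes of that list, 19 rose in each subset, as did 18.6% of all genes in double-positive and 10.3% in CD11b+ DCs, and 1 fell in each, as did 13.6% and 4.93%; the median change was 3.49 in double-positive and 1.99 in CD11b+ DCs, against 0.07 and 0.03 over all genes tested. The interaction was called positive for 14 and negative for 2, against 5.7% and 5.94% of all genes. Its median was 1.35 beside 0.01 over all genes. With total counts 9 were positive and 2 negative. Fscn1, the actin-bundling protein of DC dendrites, went from 25.9, 21.9 and 32.9 CPM to 686, 819 and 790 CPM in CD11b+ and from 65.5, 73.6 and 75.8 CPM to 5324, 3963 and 4495 CPM in double-positive DCs. It was already higher in double-positive DCs in the lamina propria, and the interaction was 1.17 ± 0.28 (adjusted p = 0.00425).

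Cd40, the co-stimulatory receptor for CD40 ligand on T cells, was at 79.8, 71.5 and 85.9 CPM in the lamina propria and 201, 233 and 238 CPM in the lymph node in CD11b+ DCs. Double-positive DCs had 85.3, 103 and 103 CPM in the lamina propria and 694, 846 and 715 CPM in the lymph node. The subsets overlapped in the lamina propria and were far apart in the node, with an interaction of 1.45 ± 0.17 (adjusted p = 1.1e-05). Samsn1, Marcksl1 and Tmem123 had the largest interactions of the list, of 2.06 ± 0.22, 2.02 ± 0.18 and 2.02 ± 0.19. Ccr7, the receptor that guides DCs into lymph, rose steeply in both, from 40.7, 25.4 and 64 CPM to 1024, 1811 and 1880 CPM in CD11b+ and from 129, 147 and 194 CPM to 7902, 9865 and 9307 CPM in double-positive DCs. Its interaction of 0.67 ± 0.39 (adjusted p = 0.219) was not called; double-positive DCs were higher by 1.85 on the log2 scale in the lamina propria and by 2.52 in the node. Cd83, Cd274, Ccl22, Cacnb3 and Slco5a1 were likewise not called.

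The 2 genes of the list with a negative interaction are the co-stimulatory ligands Cd80 and Cd86. Cd80 fell in double-positive DCs by 1.07 and was at 0.04 in CD11b+ DCs, an interaction of -1.11 ± 0.25 (adjusted p = 0.00317). Cd86 had a log2 difference of -0.58 ± 0.13 in double-positive and 0.46 ± 0.13 in CD11b+ DCs, neither called, with an interaction of -1.04 ± 0.19 (adjusted p = 0.000551). Ccl17 was positive at 1.62 ± 0.30. It fell in CD11b+ DCs by 1.66, while its difference in double-positive DCs was -0.04. Relb, an NF-kB subunit of the non-canonical pathway, went from 184, 176 and 183 CPM to 748, 893 and 1020 CPM in CD11b+ and from 120, 163 and 129 CPM to 2329, 2267 and 2532 CPM in double-positive DCs. Of 12 NF-kB genes, Relb, Nfkb2, Rela, Nfkbib and Bcl3 were called positive, against 5.7% of all genes. Nfkb1, which encodes p105, was at 231, 254 and 304 CPM in the lamina propria and 59.1, 60.6 and 67 CPM in the lymph node in double-positive DCs and was called negative at -1.76 ± 0.18 (adjusted p = 1.9e-06). With total counts 3 of the 12 were positive and 1 negative.

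Markers of conventional DCs of type 2 (cDC2) were called negative in the interaction in 7 of 14 cases and positive in 2, against 5.94% and 5.7% over all genes. In double-positive DCs 10 fell and 2 rose (median -1.56), where 13.6% of all genes fell and 18.6% rose, and in CD11b+ DCs 5 fell and 2 rose (median -0.47), where 4.93% fell and 10.3% rose. Cd209a, a lectin receptor of the DC-SIGN family, overlapped between the subsets in the lamina propria and fell from 2413, 2450 and 1329 CPM to 320, 162 and 241 CPM in CD11b+ and from 2360, 2130 and 1903 CPM to 8.59, 8.03 and 11.9 CPM in double-positive DCs, an interaction of -4.72 ± 0.43 (adjusted p = 7.39e-07). Mgl2 and Clec10a, lectins for galactose-type sugars, Cd300a, Clec7a and Clec4a4 were also negative, with values from -4.18 to -1.03. Sirpa, the receptor for CD47, was at 474, 466 and 619 CPM in the lamina propria and 742, 515 and 832 CPM in the lymph node in CD11b+ DCs. The double-positive libraries were at 429, 415 and 446 CPM in the lamina propria and 165, 139 and 170 CPM in the lymph node. It fell in the double-positive subset alone, with an interaction of -1.87 ± 0.20 (adjusted p = 3.91e-06).

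Tmem176a and Tmem176b, ion channels of antigen-presenting cells, were the exceptions, at 3.24 ± 0.35 and 3.05 ± 0.33. The naming rule gave Siglecf, Cd209c and Clec4a2 for genes that fell in both subsets and further in double-positive DCs. Siglecf, a sialic acid receptor also known from eosinophils, went from 152, 110 and 179 CPM to 0.508, 0 and 1.28 CPM in double-positive and from 20.4, 17.4 and 32.5 CPM to 1.52, 5.71 and 7.26 CPM in CD11b+ DCs. It gave Cd209b, Ctnnd2 and Cd300lf for those that fell in double-positive DCs alone, at -4.94, -4.93 and -4.80. Cd209b, for example, was at 360, 306 and 440 CPM in the lamina propria and 13.4, 18.5 and 15.3 CPM in the lymph node in double-positive DCs, and at 43.6, 48.8 and 70.3 CPM in the lamina propria and 59.8, 83.6 and 70.4 CPM in the lymph node in CD11b+ DCs. Of 12 markers of type 1 DCs, the cross-presenting lineage, 4 were positive and 1 negative, against 5.7% and 5.94% of all genes. Irf8 rose in both subsets, from 147, 148 and 158 CPM to 381, 416 and 419 CPM in CD11b+ and from 80.8, 92.6 and 77.4 CPM to 618, 749 and 701 CPM in double-positive DCs. Wdfy4, which serves cross-presentation, fell in double-positive DCs alone with an interaction of -2.16 ± 0.20 (adjusted p = 1.03e-06).

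Rising genes given by the rule were at low levels in the lamina propria. Npr2, a natriuretic peptide receptor, Pard6g, a polarity protein, and Cdh2, N-cadherin, rose in both subsets and further in double-positive DCs. The interaction of Cdh2 was not firm, since it lost its call under 13 of 24 other settings and left-out libraries. Pard6g went from 0.969, 1.54 and 1.36 CPM to 3.96, 5.65 and 5.26 CPM in CD11b+ and from 0.298, 0 and 0.0714 CPM to 16, 15 and 12.2 CPM in double-positive DCs. For Npr2 and Cdh2 no fold is given, since the lamina propria double-positive libraries were at 0, 0.0339 and 0 and at 0, 0 and 0.0357 CPM, against 10.6, 9.63 and 12.2 and 10.7, 7.92 and 9.69 CPM in the node. Fbln5, an extracellular matrix protein, and Pbld1 rose in double-positive DCs alone. Fbln5 was at 0.633, 0.847 and 0.857 CPM in the lamina propria and 53.4, 64.5 and 64.2 CPM in the lymph node in double-positive DCs, and at 1.26, 3.18 and 1.2 CPM in the lamina propria and 1.28, 4.35 and 3.83 CPM in the lymph node in CD11b+ DCs, an interaction of 5.53 ± 0.72 (adjusted p = 2.32e-05).

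Genes of cell division fell in double-positive DCs and did not pass the test in CD11b+ DCs. All 25 proliferation genes measured fell in double-positive DCs, against 13.6% of all genes. None of the 25 was called in CD11b+ DCs, where 4.93% of all genes fell. There 13 had an unadjusted p under 0.05, all lower, against 46.4% of all genes in either direction, and DESeq2 called none. The medians were -1.65 and -0.27, against 0.07 and 0.03 over all genes. The interaction was negative for 16 and positive for none, against 5.94% and 5.7% of all genes. Its median was -1.44 beside 0.01 over all genes. With total counts 22 were negative, and without both lymph node replicates 3 the number was 14. Mki67, the proliferation antigen Ki-67, was at 42.5, 53.3 and 49 CPM in the lamina propria and 55.9, 41.6 and 48.8 CPM in the lymph node in CD11b+ DCs. Levels in double-positive DCs were 46.6, 54.8 and 63.4 CPM in the lamina propria and 16.3, 18.1 and 18.2 CPM in the lymph node. The CD11b+ groups overlapped fully, and each double-positive node library was below every other library, an interaction of -1.66 ± 0.19 (adjusted p = 5.6e-06). Summed over the list, the level in double-positive DCs was 2229 to 2390 CPM in the lamina propria and 737 to 872 CPM in the node, against 2031 to 2547 and 1424 to 1818 CPM in CD11b+ DCs.

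Ccnb2, cyclin B2, led the list. It had 67.5, 78 and 102 CPM in the lamina propria and 14.7, 21.8 and 14 CPM in the lymph node in double-positive DCs and 54.3, 54.5 and 60.4 CPM in the lamina propria and 52.9, 37.6 and 49.9 CPM in the lymph node in CD11b+ DCs, with an interaction of -2.02 ± 0.31 (adjusted p = 0.000104). Ccna2, Tpx2, Rrm2, Cdc20, Bub1, Birc5, Ccnb1, Kif11, Top2a, Cdk1, Aurka and Aurkb lay between -1.96 and -1.30. The replication helicase genes were less unequal, with Mcm2 at -1.16 ± 0.27 and Mcm3 to Mcm7, none of them called, between -0.88 and -0.60. Pcna and Tyms were not called either, at -0.83 ± 0.13 and -0.73 ± 0.14.

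The promoters of these genes are shown because genes of G2 and M share 2 short elements, the CCAAT box and the cell cycle homology region TTTGAA. In the 250 bases before the RefSeq starts (GRCm38.p6), searched on both strands, CCAAT stood in 19 of 22 windows found for the list (86.4%) and in 33.8% of all windows, and TTTGAA in 7 of 22 (31.8%) against 16.0%. The 7 were all among the 13 windows of genes with a negative interaction, and none of the 9 windows of the genes not called held it. The matches are letters in a window, not shown sites. The 180 bases before the start of Ccnb2 (chr9:70421555-70421734, - strand), Cdc20 (chr4:118437344-118437523, - strand) and Cdk1 (chr10:69352913-69353092, - strand) are printed from 5′ to 3′ with both elements, in either orientation, in capitals:
Ccnb2: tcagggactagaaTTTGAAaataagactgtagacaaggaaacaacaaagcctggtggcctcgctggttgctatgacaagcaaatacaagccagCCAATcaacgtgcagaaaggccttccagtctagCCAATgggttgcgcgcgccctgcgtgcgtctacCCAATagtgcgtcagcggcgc
Cdc20: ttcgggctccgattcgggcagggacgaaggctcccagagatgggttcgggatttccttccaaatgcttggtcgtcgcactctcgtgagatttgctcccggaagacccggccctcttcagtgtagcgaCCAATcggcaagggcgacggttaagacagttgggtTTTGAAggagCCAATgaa
Cdk1: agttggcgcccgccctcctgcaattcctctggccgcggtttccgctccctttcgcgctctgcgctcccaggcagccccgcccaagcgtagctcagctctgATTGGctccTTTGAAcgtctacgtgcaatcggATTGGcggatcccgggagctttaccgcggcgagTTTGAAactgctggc
Ccnb2 holds 3 CCAAT and 1 TTTGAA, Cdc20 holds 2 and 1, and Cdk1 holds 2 of each, with CCAAT read on the other strand as ATTGG.

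Antigen presentation genes moved apart by class. Of 12 genes of class I presentation, 9 rose in double-positive and 2 in CD11b+ DCs, and the interaction was positive for 8 and negative for none, with a median of 1.08. Over all genes 18.6% rose in double-positive DCs, 10.3% in CD11b+ DCs and 5.7% were positive, so the count in CD11b+ DCs is near the background. With total counts 2 of the 12 were positive, so that count rests on the scaling. Tap1, a subunit of the peptide transporter, was at 329, 333 and 281 CPM in the lamina propria and 456, 523 and 511 CPM in the lymph node in CD11b+ DCs. For double-positive DCs the values were 303, 317 and 258 CPM in the lamina propria and 1313, 1263 and 1394 CPM in the lymph node. Its groups overlapped in the lamina propria only, and its interaction of 1.52 ± 0.13 (adjusted p = 3.9e-07) was called with total counts too. Tapbp, tapasin, had 1.41 ± 0.11, B2m, the class I light chain, had 1.25 ± 0.16, and Psmb8, an immunoproteasome subunit, had 1.26 ± 0.14.

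Over all genes 5.94% had a negative and 5.7% a positive interaction. Among 10 genes of class II, 5 had a negative interaction and none a positive one. These 5 load or regulate class II, but H2-DMb1, another DM chain, and Cd74 were not called. None of the class II chains H2-Aa, H2-Ab1 and H2-Eb1 was called. By DESeq2, and without both lymph node replicates 3, 4 of the list were negative. H2-Ob, a chain of the peptide editor DO, was at 400, 355 and 295 CPM in the lamina propria and 281, 198 and 247 CPM in the lymph node in CD11b+ DCs, and at 521, 491 and 473 CPM in the lamina propria and 48, 59.1 and 63 CPM in the lymph node in double-positive DCs, an interaction of -2.59 ± 0.19 (adjusted p = 1.33e-07). H2-Oa, its partner, had -1.52 ± 0.17, Ciita, the class II transactivator, -1.06 ± 0.24, and the DM chains H2-DMa and H2-DMb2 had -1.08 ± 0.15 and -1.01 ± 0.18. H2-Aa, H2-Eb1 and Cd74 had values from 0.08 to 0.11 and H2-Ab1 -0.36, none called.

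**Figure D3:**
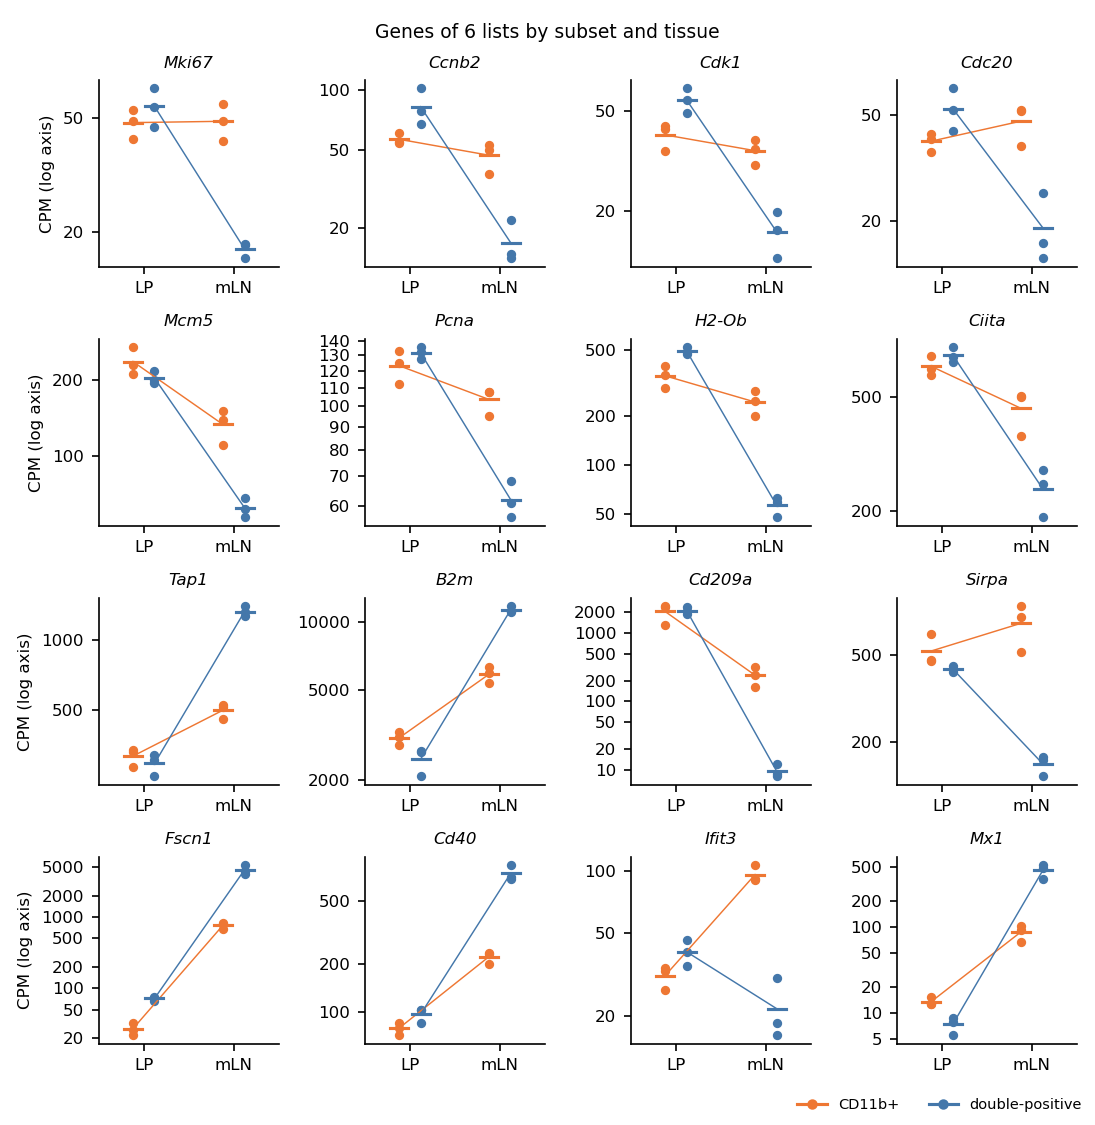
Levels in CPM on a log axis of 16 genes from the lists for proliferation (Mki67 to Pcna), class II (H2-Ob, Ciita) and class I (Tap1, B2m) presentation, cDC2 markers (Cd209a, Sirpa), maturation (Fscn1, Cd40) and interferon-stimulated genes (Ifit3, Mx1), drawn as in the plot of opposite genes with points for libraries and bars for group means. The blue double-positive lines are steeper than the orange CD11b+ ones except for Ifit3, where CD11b+ DCs rise from about 31.2 to 96.2 CPM.

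Interferon-stimulated genes were divided. Of 23 measured, 12 rose in each subset, against 18.6% and 10.3% of all genes, with medians of 1.10 in double-positive and 1.01 in CD11b+ DCs. The interaction was called for 8, negative for Ifit3, Rtp4, Cxcl10, Ddx58, Oasl2 and Ifit2 and positive for Mx1 and Gbp2, and 4 were positive by DESeq2. Over all genes 5.94% were negative and 5.7% positive, so the count of positive genes by edgeR is near that share. Ifit3, a binding partner of the cap sensor IFIT1, was at 34, 33.1 and 26.7 CPM in the lamina propria and 90.2, 107 and 91.8 CPM in the lymph node in CD11b+ DCs, and at 46.5, 34.8 and 40.9 CPM in the lamina propria and 16.1, 30.3 and 18.5 CPM in the lymph node in double-positive DCs, with an interaction of -2.53 ± 0.42 (adjusted p = 0.000239). Its near copy Ifit3b (chr19:34607970-34613401) was among the opposite genes, at 6.07, 8.38 and 5.72 CPM in the lamina propria and 27.5, 33.7 and 28.7 CPM in the lymph node in CD11b+ DCs. Double-positive DCs had 14.3, 10.6 and 13.3 CPM in the lamina propria and 5.04, 7.68 and 4.32 CPM in the lymph node. The interaction of Ifit3b was -3.32 ± 0.49 (adjusted p = 8.22e-05), and reads of the pair may have been divided between them. Isg20, an exonuclease of this class outside the list and named after its values were seen, was also opposite in direction, at -2.14 ± 0.28.

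Mx1, an antiviral GTPase, went the other way, from 12.6, 15.3 and 12.7 CPM to 67.5, 92.7 and 104 CPM in CD11b+ and from 8.87, 7.79 and 5.53 CPM to 479, 362 and 521 CPM in double-positive DCs, an interaction of 3.24 ± 0.28 (adjusted p = 4.77e-07). Gbp2, a guanylate-binding protein, was at 178, 172 and 149 CPM in the lamina propria and 919, 781 and 886 CPM in the lymph node in double-positive DCs, and at 112, 113 and 87.8 CPM in the lamina propria and 143, 183 and 181 CPM in the lymph node in CD11b+ DCs. Irf7 and Isg15 rose in both subsets, and their interactions of -0.01 ± 0.24 and -0.09 ± 0.21 were not called. The core of the interferon-stimulated response element, written here as GAAA, any 2 bases and GAAA again, was searched on both strands. It stood in 9 of 19 windows of the list (47.4%) and in 2.98% of all windows, in 2 of 6 windows of genes with a negative interaction, in the 1 window of a gene with a positive one, and in 6 of 12 of those not called. The 180 bases before the start of Ifit3 (chr19:34583349-34583528, + strand), Ifit3b (chr19:34607777-34607956, + strand) and Gbp2 (chr3:142620483-142620662, + strand) are shown so that the near copies and a gene of the other direction can be set side by side, with the element in capitals, each time on the other strand:
Ifit3: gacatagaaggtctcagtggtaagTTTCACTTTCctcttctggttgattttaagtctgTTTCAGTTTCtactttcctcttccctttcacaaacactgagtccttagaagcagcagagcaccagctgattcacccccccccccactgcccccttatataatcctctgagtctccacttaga
Ifit3b: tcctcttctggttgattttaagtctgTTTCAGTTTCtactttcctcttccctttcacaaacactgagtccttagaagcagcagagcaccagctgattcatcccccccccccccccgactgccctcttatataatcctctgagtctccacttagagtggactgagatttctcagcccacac
Gbp2: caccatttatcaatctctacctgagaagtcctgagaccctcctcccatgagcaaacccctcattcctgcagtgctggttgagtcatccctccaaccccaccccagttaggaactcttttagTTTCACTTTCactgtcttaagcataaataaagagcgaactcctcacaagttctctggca
Ifit3 holds 2 matches and Ifit3b and Gbp2 hold 1 each in these bases.

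Signalling and enzyme genes known from intestinal DCs were unequal as well. Aldh1a2, the enzyme that makes retinoic acid, was at 96.9, 106 and 101 CPM in the lamina propria and 65.7, 120 and 131 CPM in the lymph node in CD11b+ DCs. The double-positive libraries were at 190, 167 and 178 CPM in the lamina propria and 847, 813 and 1044 CPM in the lymph node. It rose in double-positive DCs alone, with an interaction of 2.28 ± 0.27 (adjusted p = 1.03e-05). Of 12 genes of retinoic acid handling, 2 were positive, Aldh1a2 and the reductase Dhrs3, and 2 negative, the receptors Rara and Rxra; 5 were positive by DESeq2. Tgfb1 and Smad7 were negative, at -1.39 ± 0.18 and -1.21 ± 0.24, of 12 TGF-beta genes. Over all genes 5.7% were positive and 5.94% negative, and counts of 2 among 12 lie little above those shares. Tnf rose in CD11b+ DCs alone, from 20.8, 14.9 and 18.3 CPM to 75.9, 79.6 and 75.6 CPM, and was at 26.2, 22.6 and 30.1 CPM in the lamina propria and 27.5, 34.5 and 40.7 CPM in the lymph node in double-positive DCs, while Il15 and its receptor chain Il15ra rose further in double-positive DCs, with interactions of 1.85 ± 0.20 and 1.35 ± 0.30.

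Of 16 chemokines and chemokine receptors, 7 were positive and 2, Ccl3 and Ccl4, negative, against 5.7% and 5.94% of all genes. With total counts 4 were positive and 4 negative, where 595 and 1760 of all 17074 genes were. The gut-homing receptor Ccr9 fell in CD11b+ DCs from 65.2, 51.1 and 115 CPM to 24.3, 17.4 and 24.7 CPM, and was at 28.9, 27.1 and 19.8 CPM in the lamina propria and 26.6, 33 and 25.3 CPM in the lymph node in double-positive DCs, an interaction of 1.97 ± 0.35 (adjusted p = 0.000428). Cxcl16 rose in both and further in double-positive DCs, at 1.89 ± 0.23. Ccl9 rose in double-positive DCs alone, at 3.43 ± 0.35. Of the immediate early genes, which also respond to tissue digestion, 9 of 19 were negative and none positive, against 5.94% and 5.7% over all genes. In double-positive DCs 9 fell and 4 rose, where 13.6% of all genes fell and 18.6% rose. In CD11b+ DCs 2 fell and 3 rose, where 4.93% fell and 10.3% rose. Nr4a1, for example, was at 1131, 809 and 831 CPM in the lamina propria and 540, 860 and 1341 CPM in the lymph node in CD11b+ DCs, and at 1380, 1152 and 1152 CPM in the lamina propria and 79.5, 137 and 237 CPM in the lymph node in double-positive DCs; no label gives the digestion of single libraries, and its part was not tested.

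Of 14 glycolysis genes 4 were negative, Hk2, Ldha, Slc2a1 and Eno1, of 11 lysosomal proteases and cystatins 5 were positive, with 1 positive under total counts, and of 18 cholesterol genes Idi1 alone was called, at 1.41 ± 0.21. Among 12 Notch genes Jag1 and Rbpj were positive and Mfng negative, among 12 Toll-like receptors Tlr12 was positive and Tlr2 negative, and of 12 genes of the BCL2 family Bbc3 alone was called. The shares for Toll-like receptors, cholesterol genes and the BCL2 family are near those over all genes, of which 5.7% were positive and 5.94% negative. For 120 genes no tissue effect was called in either subset, and the naming rule gave Sirpb1c, Sept3 and Nrip1. Nrip1, a nuclear receptor corepressor, had differences of 0.96 ± 0.16 in double-positive and -0.86 ± 0.16 in CD11b+ DCs, and an interaction of 1.82 ± 0.23 (adjusted p = 1.85e-05).

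Without both lymph node replicates 3, some counts of list members called in the interaction changed. Maturation genes had 12 positive and 1 negative, type 1 DC markers 2 and 1, cDC2 markers 2 and 5, chemokine genes 5 and 1, interferon-stimulated genes 4 and 6, retinoic acid genes 2 and 1, and class I genes 7 and 0. Of the Notch genes Jag1 and Rbpj were then not called, nor was Tlr2, and lysosomal genes had 4 positive.

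**Figure D4:**
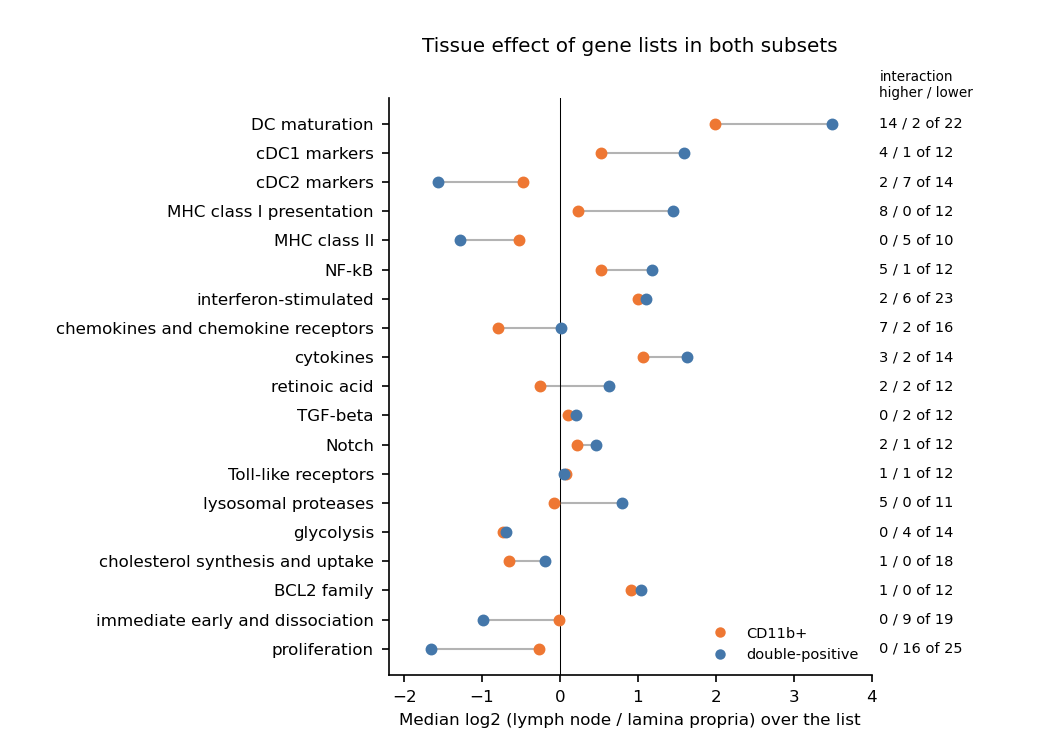
Median log2 difference of lymph node over lamina propria for 19 gene lists in CD11b+ (orange) and double-positive (blue) DCs, with the number of genes of each list whose interaction was called higher or lower, of those tested, at the right. The subsets lie farthest apart for maturation genes, at 1.99 and 3.49, and for proliferation genes, at -0.27 and -1.65.

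Genes that changed in CD11b+ DCs alone were few. Fn1, fibronectin, fell there from 27.1, 62 and 139 CPM to 2.1, 1.53 and 3.63 CPM, while double-positive DCs had 0.373, 1.02 and 1.25 CPM in the lamina propria and 0.664, 0.942 and 0.238 CPM in the lymph node. Il22ra2, the soluble antagonist of interleukin 22, fell from 910, 629 and 1914 CPM to 67.1, 47 and 88.8 CPM in CD11b+ DCs, and was at 88.4, 92.2 and 47.1 CPM in the lamina propria and 38.2, 38.8 and 54.9 CPM in the lymph node in double-positive DCs. Ecm1, an extracellular matrix protein, was the other gene named of this kind. In all 3 the lamina propria CD11b+ libraries were spread over more than 2-fold with replicate 3 highest, the library with the highest macrophage sum. The interactions were 4.50 ± 0.93 (adjusted p = 0.00149), 3.30 ± 0.56 (adjusted p = 0.000316) and 2.84 ± 0.51 (adjusted p = 0.000502), and that of Fn1 was not called without replicate 2 of the lymph node double-positive group.

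Apol7e, an apolipoprotein L, also rose in CD11b+ DCs alone, with an interaction of -3.26 ± 0.43. Apol7e went from 1.69, 1.39 and 2.43 CPM to 16.1, 28.9 and 16.9 CPM in CD11b+ DCs, and was at 8.87, 6.24 and 8.74 CPM in the lamina propria and 10.9, 8.59 and 8.36 CPM in the lymph node in double-positive DCs. Fam184b, Ly6i and Adam11 rose in both subsets and further in CD11b+ DCs. Ly6i, a GPI-anchored protein of the Ly6 family, went from 3.27, 3.95 and 2.68 CPM to 84.5, 34.2 and 82.4 CPM in CD11b+ and from 0.708, 0.813 and 0.821 CPM to 1.33, 3.07 and 2.04 CPM in double-positive DCs, an interaction of -2.88 ± 0.56 (adjusted p = 0.000964). Adam11 lost its call under 6 settings.

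Markers of other cells were examined beside these results. T cell markers summed to 15.5 to 40.1 CPM in CD11b+ and 6.75 to 21.99 CPM in double-positive DCs of the lamina propria, and to 394 to 746 and 381 to 644 CPM in the node. All 13 were called higher in the node in each subset, against 18.6% of all genes in double-positive and 10.3% in CD11b+ DCs. In the interaction 1, Cd2, was called, against 11.6% of all genes. B cell markers summed to 173 to 247 CPM in CD11b+ and 59.8 to 73.2 CPM in double-positive DCs of the node, where Cd22 rose in CD11b+ DCs alone, with an interaction of -2.68 ± 0.62 (adjusted p = 0.00344). Plasma cell genes were at 4631 to 8695 CPM in CD11b+ and 734 to 2000 CPM in double-positive DCs over both tissues. In the interaction 1 of 7 was called, near the share over all genes. Of 10 NK cell and ILC markers, 10 were called higher in the node in double-positive and 9 in CD11b+ DCs. None of the 10 was called in the interaction by edgeR or DESeq2, 2 having an unadjusted p under 0.05. Of 13 epithelial markers, 8 were called lower in the node in double-positive DCs, and 12 lower and 1 higher in CD11b+ DCs. Over all genes 13.6% and 4.93% were lower. The median interaction of the epithelial list was 2.10. A single gene was called in the interaction in each of the epithelial (Cdh1, of 13), granulocyte (Siglecf, of 6), stromal (Pecam1, of 7) and plasmacytoid DC (Spib, of 6) lists. The part of such cells in the results was not tested.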

How the data were processed

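RNA was measured by Smart-seq v4 RNA-seq in 18 libraries of sorted intestinal DCs, of which 12 are compared here. The deposited values are whole-number counts of reads per gene; the authors' notes name FastQC 0.11.7, STAR 2.6 and GRCm38, while the counting tool, annotation and strand setting are "not given in the sources used here"; Smart-seq v4 libraries carry no strand, and reads shared by near-identical genes may have been split or lost.

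From the deposited counts, genes were filtered by filterByExpr and fitted once over all 18 libraries with edgeR 4.0.16 (quasi-likelihood test, TMM factors, R 4.3.3), and the interaction and its parts were taken as contrasts. Every adjusted p is Benjamini-Hochberg over 17074 genes, two-sided, and values after ± are standard errors. Calls need an adjusted p under 0.01 and an absolute log2 value over 1. Libraries were grouped by their labels; whether replicates are separate animals is not given, so p-values measure the spread between these libraries, which may be technical. Genes were named by rank of absolute interaction within each class among symbols with at least 10 CPM in a group and no overlap between tissues where the effect was called, plus at most 4 called genes of each list and defining markers; further list members are named to account for their list, and others are said to be chosen after their values were seen. The members, classes and 28 lists were chosen with earlier results of these data known. Symbols and positions matched 54165 of 54232 genes. Promoters are RefSeq windows. The test was checked on simulated counts. DESeq2 1.42.0, other scalings, filters and thresholds, replicate blocks and left-out libraries were tried as alternatives. The values of some genes are not reported here.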

Additional observations from a re-analysis of the deposited data

Results flagged for a closer look

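The results marked for a closer look are those in which the tissue effect differed between the subsets by the test of the interaction itself. The interaction was called for 1987 of 17074 genes (11.6%) by edgeR, and for 27 genes the effects were called in opposite directions. Among the named genes of that kind the interaction was -5.40 for Ptger3, -4.75 for Clec4a1, -4.08 for Cyp4f16, -3.32 for Ifit3b, -2.94 for Tbx21 and -2.57 for Sirpb1a, each negative. It was 5.42 for Bst1, 4.72 for H2-Q10, 4.29 for Gprc5a, 4.14 for Pla2g7, 3.10 for Lyz1, 3.02 for Ccr2, 2.31 for Tlr12 and 2.30 for Il1rn. Each group held 3 libraries, so single libraries were not tested for standing apart.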

How the results depend on the processing

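Of the recomputed counts of genes, 288 stayed within 1.5 times the reported value and 29 did not. Of the recomputed interactions of named genes, 2701 kept their side of the threshold, 129 lost their call, 1 gained it and 0 called values changed sign. With total counts, 595 genes were positive and 1760 negative, 14 moved the same way but further in CD11b+ DCs and 196 had neither effect called. With libraries thinned to equal depth the class larger in CD11b+ DCs held 4 genes, and by DESeq2 28. At an adjusted p under 0.05 there were 49 opposite genes, 37 larger in CD11b+ DCs, 158 in CD11b+ DCs alone and 1289 between the subsets in the lamina propria. With no limit on fold change the interaction was called for 3192 genes, 1633 positive and 1559 negative, and the tissue effects for 8467 (double-positive) and 4571 (CD11b+). The classes then held 96 opposite genes, 1182 larger in double-positive DCs, 25 larger in CD11b+ DCs, 180 in CD11b+ DCs alone and 38 with neither effect, and the subsets differed for 1299 genes in the lamina propria and 5507 in the lymph node. Without both lymph node replicates 3 there were 16 opposite genes and 2 larger in CD11b+ DCs. Leaving out 1 library at a time gave 1649 to 1920 interaction calls, 19 to 27 opposite genes, 391 to 448 larger in double-positive DCs and 3 (without replicate 1 of the lamina propria double-positive group, or replicate 1 or 2 of the lymph node double-positive group) to 13 (without lamina propria CD11b+ replicate 3) larger in CD11b+ DCs. Those 9 genes are therefore not a stable count. The cause of these changes was not tested.

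A replicate block on the labels' letters gave 1986 interaction calls, and 2034 with the letter nested in tissue. Deviations of same-letter libraries correlated at 0.248, 0.08 and 0.245 in the lamina propria and 0.079, 0.077 and 0.181 in the lymph node, and not all of these passed 0.1, so the letters were not taken to pair the 12 libraries. Lamina propria libraries of either subset correlated with the same-letter CD103+ library at 0.197 to 0.258 and negatively with the other letters, a hint from the data that letters there share something. The block changed no count above by more than 1.5 times. B2m, Cst3, Ctsz and Psmb8 lost their calls with total counts. With 3 libraries a group, genes at a few reads in one group, such as Siglecf and Pbld1, have imprecise folds.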

Other observations

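The 6 libraries of CD103+ single-positive DCs entered the fit but no comparison above, and their levels of the opposite genes are given for context. Tlr12 was at 856 CPM in the lamina propria and 63.9 CPM in the node of these cells (means of 3 libraries), higher than in any group of the other subsets in each tissue. Pla2g7 was at 16.5 and 146 CPM, Rab20 at 17.3 and 115 CPM and Bst1 at 1.25 and 14.0 CPM, each higher in the node. Cd82 was at 450 and 93.9 CPM and Cyp4f16 at 40.7 and 7.61 CPM, each lower in the node. Clec4a1, Sirpb1a and Ptger3 were at or below 2.34 CPM in both tissues.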
